A study of Arabidopsis thaliana with 4 samples.

Results

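The genes described here carry sulfate into plant cells, reduce it, or mark a shortage of sulfur. They are 10 of the 33602 genes in the deposited Arabidopsis thaliana table and were chosen by name from their known roles, by locus identifier. Earlier results of these data were known when they were chosen. They comprise the APS reductase genes APR1 (AT4G04610), APR2 (AT1G62180) and APR3 (AT4G21990). The sulfate transporter genes are SULTR1;1 (AT4G08620), SULTR1;2 (AT1G78000) and SULTR4;2 (AT3G12520). The markers of sulfur deficiency are SDI1 (AT5G48850), SDI2 (AT1G04770), LSU1 (AT3G49580) and LSU2 (AT5G24660).

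The 2 glutamate libraries came from whole 14-day-old Col-0 seedlings that had been moved for 0.5 h to a half-strength MS-type salt mixture lacking nitrogen with 2.5 mM glutamate added. The 2 libraries at 0 h came from seedlings of the same age and ecotype in that mixture without glutamate, so that seedlings of both groups had grown without added nitrogen until then. No library was taken from seedlings moved for 0.5 h without glutamate, and glutamate, the move and the elapsed time cannot be told apart. The series asked which genes respond early to glutamate, and the labels do not say whether libraries of 1 group came from separate cultures.

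As background, roots take up sulfate mainly through the plasma membrane transporters SULTR1;1 and SULTR1;2, and SULTR4 proteins release stored sulfate from the vacuole. ATP sulfurylase joins sulfate to ATP to give APS, APS reductase turns APS into sulfite, and sulfite reductase makes sulfide, which is built into cysteine and from there into glutathione. APS reductase is regarded as a main control point of this route. When sulfur runs short, plants raise the transcripts of the high-affinity transporters, the APS reductases and the SDI and LSU genes. The transcription factor SLIM1 drives a large part of this response, but not all of it, and the APS reductases are not assigned to it here.

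Among the 10 genes, APR1 and LSU2 rose and SULTR1;2 fell after 0.5 h of glutamate. APR2, APR3 and SDI2 did not pass the test, and SULTR1;1, SULTR4;2, SDI1 and LSU1 lay below the minimum level for testing. The windows upstream of the 3 genes that changed are shown because they are the stretches in which regulatory motifs of these genes would first be sought. They hold the 250 bases before the annotated gene start in the RefSeq annotation of TAIR10.1, written 5′ to 3′ on the strand of the gene. They lie at chr4:2324628-2324877 (plus strand) for APR1, chr5:8444102-8444351 (minus strand) for LSU2 and chr1:29327265-29327514 (plus strand) for SULTR1;2. The deposited table carries no coordinates, and per the submitters' processing notes it was made on TAIR10. Capitals mark the motif TTGAC.
APR1: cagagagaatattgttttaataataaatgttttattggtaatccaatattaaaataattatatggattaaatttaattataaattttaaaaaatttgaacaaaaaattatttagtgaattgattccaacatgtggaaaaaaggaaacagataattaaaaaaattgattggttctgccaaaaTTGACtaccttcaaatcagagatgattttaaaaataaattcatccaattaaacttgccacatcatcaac
LSU2: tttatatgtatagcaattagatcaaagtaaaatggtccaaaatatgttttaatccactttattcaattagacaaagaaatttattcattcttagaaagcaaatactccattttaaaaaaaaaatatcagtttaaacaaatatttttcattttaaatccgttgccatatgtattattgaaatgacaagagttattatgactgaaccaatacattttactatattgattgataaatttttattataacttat
SULTR1;2: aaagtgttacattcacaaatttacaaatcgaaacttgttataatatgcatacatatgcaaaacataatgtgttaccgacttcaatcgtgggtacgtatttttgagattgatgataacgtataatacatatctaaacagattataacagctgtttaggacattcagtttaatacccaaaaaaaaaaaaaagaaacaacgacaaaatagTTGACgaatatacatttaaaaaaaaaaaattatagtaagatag

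Searched on both strands with matches allowed to overlap, TTGAC, the core of the W-box that WRKY factors bind, occurred in the windows of APR1 and SULTR1;2 and not in that of LSU2. It was present in 6 of the 10 genes' windows, against 44.9% of 27443 windows of the same length before protein-coding genes. GAGAC, the core of the sulfur-responsive element described in the SULTR1;1 promoter, was present in 1 of the 10 windows, that of SDI1, against 25.8% of all windows. The G-box CACGTG was in 0 of the 10 windows, against 6.5% of all. A match is a run of letters and not a shown binding site, and the search covered these 250 bases only.

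Levels are the authors' TMM-normalized RPKM (reads scaled to gene length and effective library size), so they can be compared between genes. Log2 changes are on the log2(RPKM + 1) scale, 0.5 h of glutamate minus 0 h, with standard errors. The change was tested in limma for 17750 genes, those averaging 1 RPKM or more over the libraries, and a gene was called at a Benjamini-Hochberg adjusted p under 0.05 over all of them. By this rule 30.8% of tested genes were called, 16.3% higher and 14.6% lower. Of the 10 genes, 6 were tested, 2 were called higher and 1 lower, and 3 were not called. Their median log2 change was 0.26, against -0.06 over all tested genes. The libraries held 21776595 and 24599752 recovered reads after glutamate and 27674435 and 23669908 at 0 h, and 3 reads in a gene of 1 kb equal 0.104 to 0.152 RPKM.

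**Figure D1:**
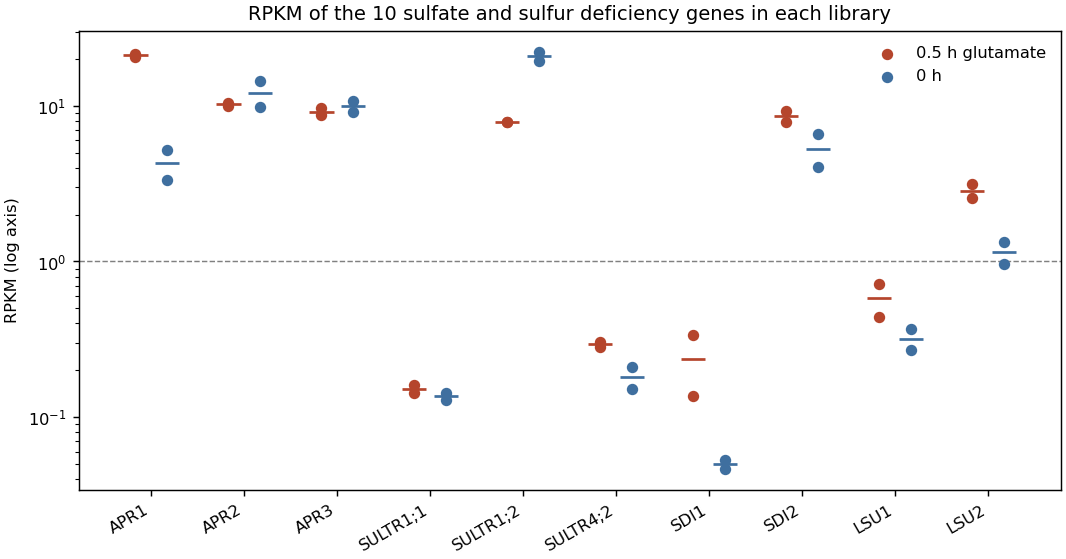
RPKM (log axis) of the 10 genes in each library, with 0.5 h of glutamate in red left of 0 h in blue; points are libraries, short lines are means of 2 and the dashed line is 1 RPKM. APR1 and SULTR1;2 stand apart between the groups in opposite directions, while 4 genes lie wholly below 1 RPKM.

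APR1, which encodes a plastid APS reductase, stood at 20.7 and 21.5 RPKM in the glutamate libraries, against 5.20 and 3.36 RPKM at 0 h. Both glutamate libraries were well above both 0 h libraries. The mean was 21.1 ± 0.61 RPKM after glutamate and 4.28 ± 1.31 RPKM at 0 h (SD, n = 2 each), a 4.93-fold ratio of mean RPKM. Its log2 change was 2.09 ± 0.20 (adjusted p = 0.00103 in limma), and none of its reads are marked as shared with another locus. An antisense gene, AT4G04614, overlaps APR1 by 21 bases in TAIR10.1 and stood at 19.8 RPKM after glutamate and 22.6 RPKM at 0 h, without a call. The use of strand in counting is not given in the sources used here.

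APR2, the isoform known for most of the APS reductase activity of leaves, stood at 10.4 and 10.03 RPKM in the glutamate libraries, against 14.4 and 9.85 RPKM at 0 h. The groups overlapped. Its log2 change was -0.21, with a 95% interval from -0.69 to 0.28 (adjusted p = 0.473 in limma). The deposited fraction read here as shared reads was 0.122 for APR2. Its recovered reads were nevertheless whole, at 366 and 411 after glutamate and 740 and 443 at 0 h. How many of its reads are shared is therefore not settled. Antisense genes also overlap APR2 in TAIR10.1. Of these, AT1G62170 averaged 0.0136 RPKM after glutamate and 0.0108 RPKM at 0 h, and AT1G08477 is absent from the deposited table.

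APR3 encodes the remaining isoform. It stood at 8.69 and 9.66 RPKM in the glutamate libraries, against 10.7 and 9.10 RPKM at 0 h, and the groups again overlapped. Its log2 change was -0.10, with a 95% interval from -0.45 to 0.26 (adjusted p = 0.646 in limma). An antisense gene, AT4G21980, overlaps APR3 by 27 bases in TAIR10.1. That gene averaged 66.0 RPKM after glutamate and 84.3 RPKM at 0 h, without a call.

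The share of APR1 among the APS reductase transcripts did not overlap between the groups. It held 52.0% and 52.2% of the summed RPKM of the 3 genes in the glutamate libraries, against 17.2% and 15.0% at 0 h. APR1 had the highest level of the 3 in each glutamate library and the lowest in each 0 h library. The summed level was 39.7 and 41.2 RPKM after glutamate and 30.3 and 22.3 RPKM at 0 h. For the share and for the sum, a two-sided exact permutation test over the libraries gave p = 0.33, the smallest that 2 against 2 libraries allow.

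**Figure D2:**
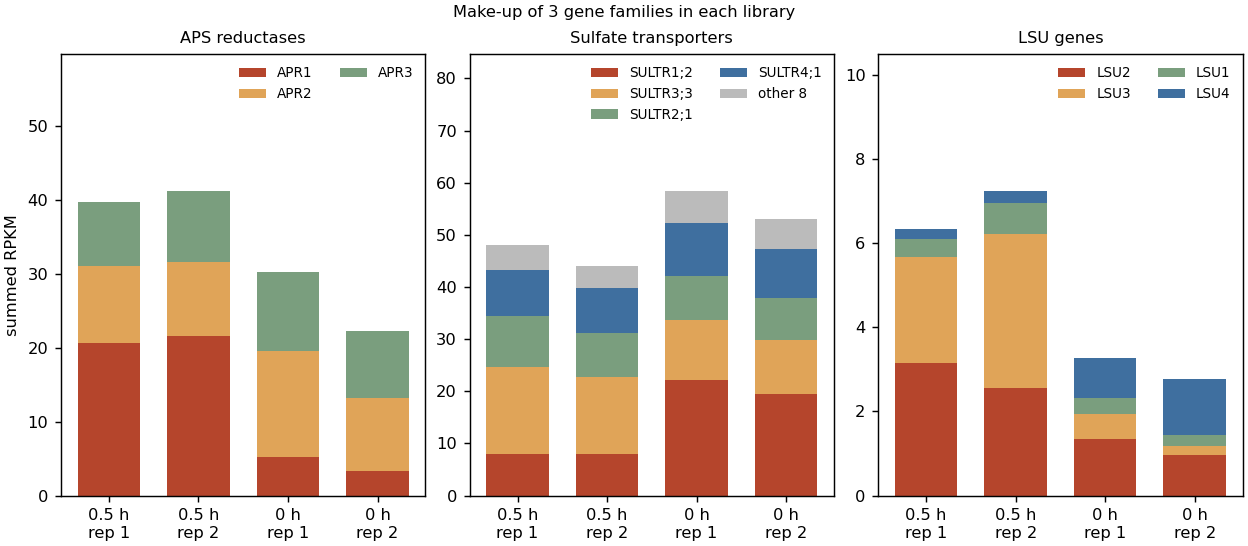
Summed RPKM of the APS reductase, sulfate transporter and LSU genes in each library (linear axes from 0), with the glutamate libraries left of the 0 h libraries; colours are genes and grey is the summed RPKM of the other 8 transporters. APR1 makes up 52.0% and 52.2% of the first family after glutamate and 17.2% and 15.0% at 0 h, while SULTR1;2 takes a smaller part of the transporters after glutamate.

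SULTR1;2, the main high-affinity sulfate importer of roots with a sufficient sulfate supply, stood at 7.89 and 7.93 RPKM in the glutamate libraries, against 22.1 and 19.5 RPKM at 0 h. The glutamate libraries nearly coincided and lay far below both 0 h libraries. The mean was 7.91 ± 0.025 RPKM after glutamate and 20.8 ± 1.90 RPKM at 0 h (SD, n = 2 each), a ratio of 0.380. Its log2 change was -1.29 ± 0.13 (adjusted p = 0.00131 in limma), with no reads marked as shared and no overlapping gene in TAIR10.1. At 0 h it had the highest level of all 12 SULTR genes, and it held 37.9% and 36.7% of their summed RPKM. In the glutamate libraries its share was 16.4% and 18.0% (exact permutation p = 0.33, the smallest possible), and the transporter with the highest level in both was SULTR3;3.

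SULTR1;2 is known mainly from roots, and markers of root and shoot were read in the same seedlings. Of 12 root markers 7 were tested, and 1 of these was called lower, where 14.6% of all tested genes were. It was TIP2;3 (AT5G47450), a vacuolar water channel gene, which averaged 0.522 RPKM after glutamate and 2.11 RPKM at 0 h and so reached the minimum level only through its 0 h level. The median log2 change of the 7 tested root markers was -0.44, against -0.06 over all tested genes. The summed level of all 12 root markers overlapped between the groups, at 33.0 and 27.6 RPKM after glutamate, against 49.2 and 31.6 RPKM at 0 h. Of 6 shoot markers 5 were called lower, with a summed level of 9329 and 7824 RPKM after glutamate and 14435 and 13547 RPKM at 0 h. The log2 changes of these markers differed widely, from -2.35 for AT1G29920 to -0.18 for AT1G67090, which was not called. No marker of either list was without reads in both libraries of a group, so both organs were present, and the part of the organ mix in the result was not tested. In bulk samples, fewer cells of a type and less RNA per cell cannot be told apart.

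SULTR1;1, the other high-affinity importer and a gene that low sulfur is known to induce, was barely detected. It had 6 and 8 reads in the glutamate libraries, against 9 and 7 reads at 0 h, or 0.142 to 0.160 RPKM against 0.129 to 0.143 RPKM. The ratio of its summed reads per effective library was 1.11, with an exact 95% interval from 0.50 to 2.42 that covers counting error only. SULTR4;2, a vacuolar exporter, had 12 and 15 reads in the glutamate libraries, against 13 and 8 reads at 0 h. It stood at 0.284 and 0.303 RPKM after glutamate, against 0.211 and 0.151 RPKM at 0 h. Its read ratio was 1.62, with an interval from 0.885 to 3.02, so that no difference was detectable at this depth for either gene. An antisense gene, AT3G12510, overlaps SULTR4;2 by 7 bases in TAIR10.1. That gene averaged 9.03 RPKM after glutamate and 4.16 RPKM at 0 h and was called higher (adjusted p = 0.0054 in limma). AT3G02545, antisense over 223 bases, is absent from the deposited table.

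SDI2, a relative of SDI1 that belongs to the same sulfur deficiency response, stood at 9.23 and 7.88 RPKM in the glutamate libraries, against 6.57 and 4.03 RPKM at 0 h. Both glutamate libraries were above both 0 h libraries. The 0 h libraries differed from each other by more than the lower glutamate library differed from the higher 0 h library. Its log2 change was 0.63, with a 95% interval from 0.07 to 1.19, and it did not pass (adjusted p = 0.091 in limma). The log2 change of SDI2 was 0.92 without 0 h replicate 1 and 0.33 without 0 h replicate 2. An antisense gene with at most 0.276 mean RPKM in either group, AT1G04760, overlaps 431 bases of it in TAIR10.1.

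SDI1, which is known to hold down aliphatic glucosinolate synthesis when sulfur is short, had 7 and 3 reads in the glutamate libraries, against 1 and 1 read at 0 h. The read ratio was 6.32, with an exact 95% interval from 1.35 to 59.3 for counting error only. Tested without a minimum level, it did not pass (adjusted p = 0.153 in limma). This marker of sulfur deficiency thus had at most 7 reads in a library.

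LSU2, one of 4 LSU genes for small coiled-coil proteins that low sulfur is known to induce, stood at 3.14 and 2.55 RPKM in the glutamate libraries, against 1.34 and 0.965 RPKM at 0 h. Every glutamate library was above every 0 h library. These levels rest on 34 and 32 reads after glutamate and 21 and 13 reads at 0 h. The ratio of mean RPKM was 2.47 and the log2 change 0.84 ± 0.17 (adjusted p = 0.0173 in limma). The call was lost without glutamate replicate 1 (log2 change 0.73, adjusted p = 0.053).

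LSU1 had 4 and 8 reads in the glutamate libraries, against 5 and 3 reads at 0 h. It stood at 0.441 and 0.719 RPKM after glutamate, against 0.370 and 0.270 RPKM at 0 h. Its read ratio was 1.90, with an exact 95% interval from 0.713 to 5.35 for counting error only, and it did not pass when tested without a minimum level (adjusted p = 0.19 in limma).

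The LSU genes lie in pairs of neighbours, LSU1 beside LSU3 on chromosome 3 and LSU2 beside LSU4 on chromosome 5. LSU3 (AT3G49570) rose to 2.52 and 3.68 RPKM in the glutamate libraries, against 0.600 and 0.202 RPKM at 0 h, from 24 and 41 reads against 8 and 2 reads. Its log2 change was 1.55 ± 0.23 (adjusted p = 0.00524 in limma). LSU3 averaged 0.401 RPKM at 0 h and reached the minimum level for testing only through the glutamate libraries; tested with no minimum level, it was called as well (adjusted p = 0.0104 in limma). LSU4 (AT5G24655), named after its values were seen, had 2 and 3 reads in the glutamate libraries, against 14 and 17 reads at 0 h. Its read ratio was 0.204, with an exact 95% interval from 0.062 to 0.529. LSU4 lay below the minimum level for testing. Tested with no minimum level, it was called lower (log2 change -0.75, adjusted p = 0.0118 in limma).

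Within the summed RPKM of the 4 LSU genes, LSU4 held 3.80% and 4.02% in the glutamate libraries, against 29.3% and 48.0% at 0 h. LSU3 held 39.7% and 50.8% after glutamate and 18.3% and 7.31% at 0 h. The share of LSU2 overlapped between the groups, at 49.5% and 35.2% in the glutamate libraries and 41.0% and 34.9% at 0 h (exact permutation p = 0.67). The sum was 6.34 and 7.24 RPKM in the glutamate libraries, against 3.27 and 2.76 RPKM at 0 h (exact permutation p = 0.33 for the sum and for the shares of LSU3 and LSU4, the smallest possible).

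The other genes of sulfur metabolism fell into 5 lists with 42 genes. Of these 33 were tested, and 7 were higher (LSU3 among them), 5 lower and 21 not called. The median log2 change of the 33 was -0.05, against -0.06 over all tested genes. These counts, and those of each list below, stand beside 16.3% higher and 14.6% lower over all tested genes. Of the 9 other sulfate transporters, 4 were tested, and 1 rose, 1 fell and 2 were not called, with a median log2 change of -0.0074. SULTR3;3 (AT1G23090), a member of a transporter subfamily of plastids and other membranes, rose by 0.49 ± 0.14 to 15.8 RPKM, against 11.0 RPKM at 0 h (adjusted p = 0.045 in limma). Leaving out any 1 of the 4 libraries ended that call (adjusted p = 0.070 to 0.237). SULTR2;2 (AT1G77990), a transporter of vascular tissue, fell to 1.64 RPKM after glutamate, against 3.19 RPKM at 0 h (adjusted p = 0.026 in limma). Its shared-read fraction was 0.276, and its call was lost without either 0 h library or glutamate replicate 1 (adjusted p = 0.055 to 0.121). SULTR4;1 (AT5G13550), the most abundant tested transporter outside the 10 genes that was not called, stood at 8.73 RPKM after glutamate and 9.72 RPKM at 0 h.

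In sulfate activation and sulfite reduction, 2 of 9 genes rose and 0 fell, with a median log2 change of 0.13. The risers were ATP sulfurylase genes, whose enzyme acts just before APS reductase. APS1 (AT3G22890) stood at 296 and 272 RPKM in the glutamate libraries, against 142 and 102 RPKM at 0 h, a log2 change of 1.23 ± 0.19 (adjusted p = 0.00597 in limma). APS3 (AT4G14680) stood at 8.23 and 6.56 RPKM, against 2.05 and 1.72 RPKM at 0 h, a log2 change of 1.54 ± 0.16 (adjusted p = 0.00163 in limma). The groups did not overlap for either gene. APS4 (AT5G43780) was the most abundant gene of the list that was not called, at 95.1 RPKM after glutamate and 110 RPKM at 0 h. The 4 APS kinase genes, whose enzyme sends APS to sulfation instead of reduction, and the sulfite reductase gene SIR did not pass.

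In cysteine and glutathione synthesis, 9 of 10 genes were tested, and 1 rose, 1 fell and 7 were not called, with a median log2 change of -0.06. Genes for serine acetyltransferase, which makes the carbon backbone O-acetylserine, moved both ways. SERAT1;1 (AT5G56760) rose to 98.2 and 96.7 RPKM in the glutamate libraries, against 56.1 and 53.7 RPKM at 0 h (log2 change 0.82 ± 0.12, adjusted p = 0.00465 in limma). SERAT2;1 (AT1G55920) fell to 43.8 and 48.2 RPKM, against 110 and 111 RPKM at 0 h (log2 change -1.24 ± 0.12, adjusted p = 0.0012 in limma). In neither gene did the groups overlap. OASA1 (AT4G14880), which encodes the cytosolic enzyme that completes cysteine, stood at 271 RPKM after glutamate and 184 RPKM at 0 h. It did not pass (adjusted p = 0.076 in limma). The log2 change of OASA1 was 0.56 as reported and 0.19 with quantile normalization. It was 0.37 without 0 h replicate 1 and 0.75 without 0 h replicate 2. The glutathione synthesis genes GSH1 and GSH2 were not called.

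Of the 6 other sulfur deficiency genes, 4 were tested, and 1 rose, 1 fell and 2 were not called, with a median log2 change of -0.04. The gene called higher was LSU3, described above, which was tested only because of its level after glutamate. BGLU30 (AT3G60140), a beta-glucosidase gene also known from darkness and sugar starvation, fell to 20.3 and 14.1 RPKM in the glutamate libraries, against 56.3 and 37.0 RPKM at 0 h (log2 change -1.38 ± 0.26, adjusted p = 0.0128 in limma). SHM7 (AT1G36370), a serine hydroxymethyltransferase gene, stood at 10.4 RPKM after glutamate and 9.66 RPKM at 0 h, without a call.

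Among 8 regulators, 2 rose, 2 fell, 3 were not called and MYB29 was not tested, with a median log2 change of 0.08. SLIM1 (AT1G73730), the main factor of the sulfur deficiency response, stood at 7.86 and 6.67 RPKM in the glutamate libraries, against 10.1 and 8.50 RPKM at 0 h, and did not pass (log2 change -0.31, adjusted p = 0.181 in limma). Scaled to library totals, it was called lower (log2 change -0.49, adjusted p = 0.045 in limma). HY5 (AT5G11260), a light-signalling factor known to bind the APR1 and APR2 promoters, fell to 8.73 and 8.68 RPKM after glutamate, against 16.2 and 23.2 RPKM at 0 h (log2 change -1.07 ± 0.19, adjusted p = 0.0104 in limma). MYB51 (AT1G18570) and MYB34 (AT5G60890), activators of indole glucosinolate synthesis, rose by 2.05 ± 0.17 and 1.03 ± 0.23 on the log2 scale (called in limma). EIL1 (AT2G27050), a relative of SLIM1 in ethylene signalling, fell by 0.73 ± 0.19 (adjusted p = 0.0348), but that call did not survive leaving out 0 h replicate 1 (adjusted p = 0.078) or glutamate replicate 2 (0.131). EIN3, another of that family, stood at 109 RPKM after glutamate and 103 RPKM at 0 h and was not called.

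**Figure D3:**
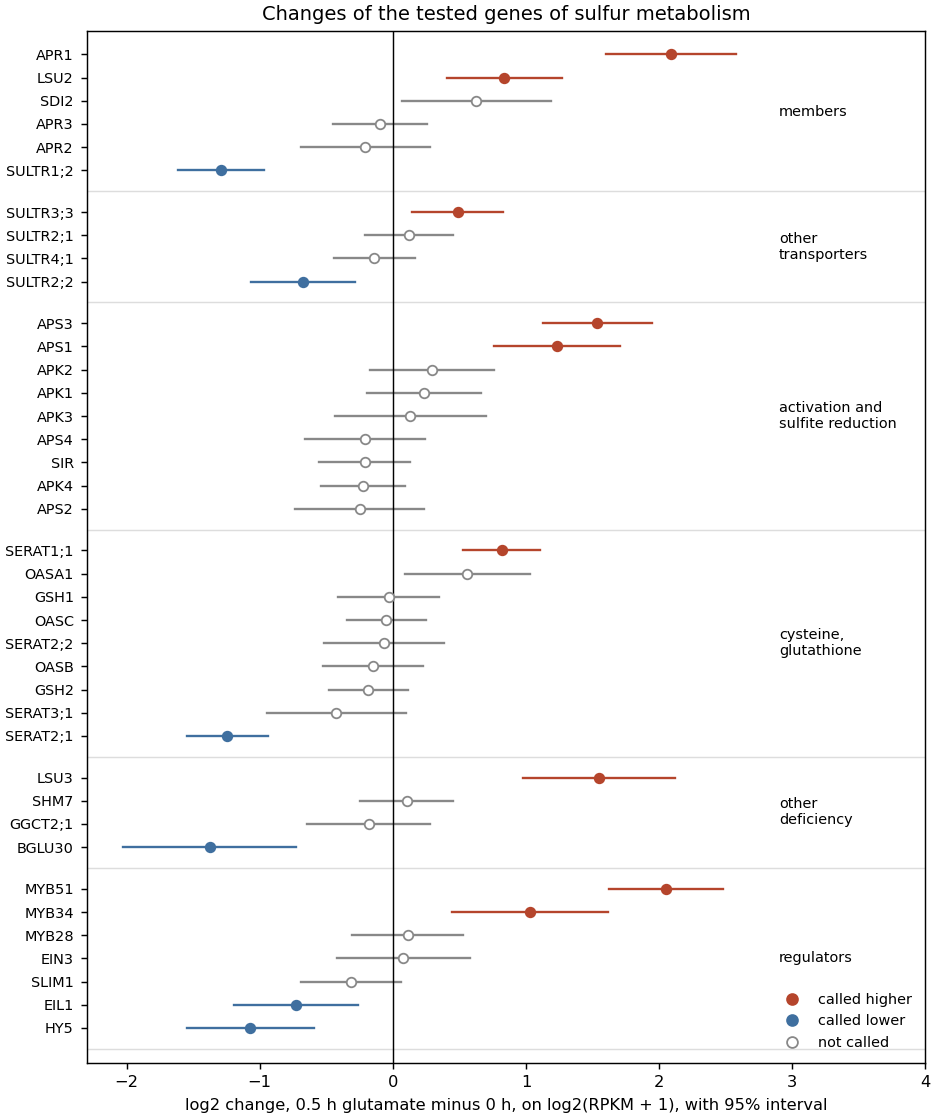
Log2 change (0.5 h of glutamate minus 0 h, on log2(RPKM + 1)) with its 95% interval for each tested gene, by list; red is called higher, blue called lower and open grey not called. Within most lists a few genes move far, such as APR1, APS1 and APS3 upward and SULTR1;2 and SERAT2;1 downward, while 3 of the 6 tested genes under members and 21 of the 33 others are not called.

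The genes whose profile over the 4 libraries was closest to that of APR1, by Euclidean distance between log2(RPKM + 1) values less each gene's mean, were AT4G30450, AT1G73810 and AT2G46150. Their distances were 0.068, 0.138 and 0.139 among 17750 genes, and their log2 changes 2.04, 2.18 and 2.04. Because they were picked for nearness, changes close to that of APR1 were fixed by the search, and shared regulation was not tested. The RefSeq annotation describes AT1G73810 as a glycosyltransferase family gene and AT2G46150 as a member of a late embryogenesis abundant family.

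**Figure D4:**
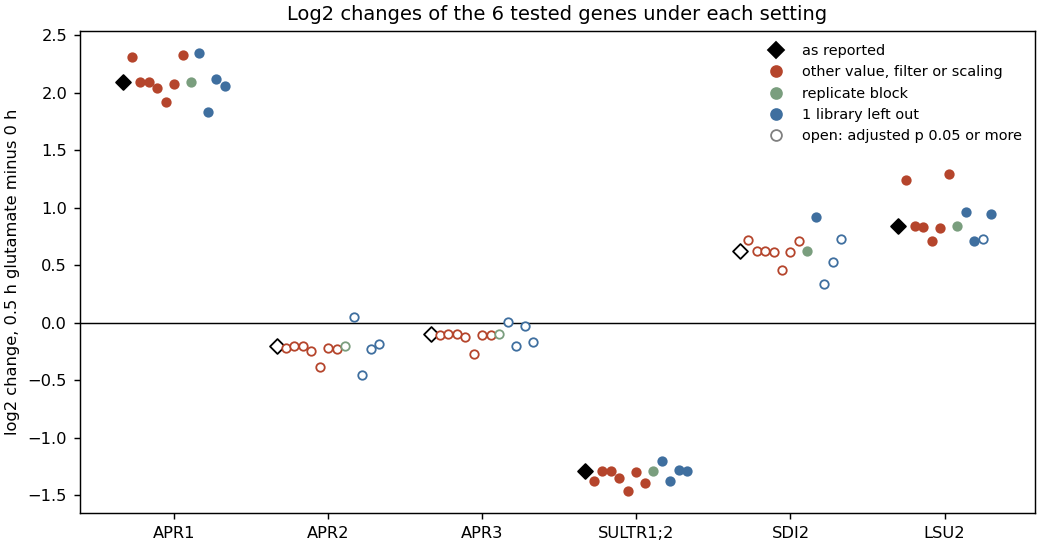
Log2 change (0.5 h of glutamate minus 0 h) of the 6 tested genes as reported (diamonds) and under each alternative (points). Filled symbols have an adjusted p under 0.05, which for fits without 1 library rests on a single library in 1 group. APR1 and SULTR1;2 are filled under all 12 alternatives, between 1.83 and 2.34 and between -1.46 and -1.20, and LSU2 is open in 1 of 11.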

How the data were processed

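RNA-seq libraries of 4 samples (2 at 0.5 h of glutamate, 2 at 0 h) were analysed from 1 table. The authors deposited TMM-normalized RPKM values with gene lengths and a fraction between 0 and 1 named maxMultiRatio, which the deposited table does not define. Where it is 0, recovered reads were whole, and so it is taken here for the part of the reads that another locus also matches. That reading is not certain, since APR2 has a fraction of 0.122 and whole reads. Per the submitters' processing notes, TAIR10 and SAMtools were used; for the aligner, the counter, strand and versions, nothing is given in the sources used here.

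Value times length showed that 0.5 read had been added to each gene, which gave back reads that were whole within 0.01 for at least 99.9% of genes with a fraction of 0. Replicates differed by more than counting noise (chi-square per degree of freedom 27.1 after glutamate and 31.7 at 0 h). Values were tested as log2(RPKM + 1) in limma 3.58.1 (R 4.3.3), two-sided, with an intensity trend and 2 residual degrees of freedom, and the p-values reflect variation among these libraries only, which may be technical. Exact intervals on reads are 95% and cover counting error only. The steps were tested on simulated data. Of the identifiers, 32835 were in the RefSeq table of TAIR10.1.

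The genes and lists were chosen with earlier results of these data known. All 10 genes are named, and of each other list the called genes and the most abundant gene not called. Alternatives covered pseudocount, filter, scaling (with 11 control genes, 0 of them called), voom weights, a replicate block and leaving out each library. The block and the fits without a library leave fewer residual degrees of freedom than the main fit. Leaving out a library leaves a single library in its group, so calls gained or lost there are weaker evidence than the main calls.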

Additional observations from a re-analysis of the deposited data

How the results depend on the processing

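With all libraries in the fit, APR1 and SULTR1;2 kept their calls under each alternative (adjusted p at most 0.00368 and 0.00366). LSU2 did so under each in which it was tested. Without 1 library, the log2 changes were 1.83 to 2.34 for APR1, -1.38 to -1.20 for SULTR1;2 and 0.71 to 0.96 for LSU2. Calls from those fits rest on a single library in 1 group and are not on the footing of the main calls. The number of the 10 genes called higher was 1 with a minimum mean of 5 RPKM, where LSU2 was not tested, and 1 to 3 when 1 library was left out, while 1 was called lower throughout. Over all genes, 2888 were higher and 2585 lower as reported, 2450 and 4359 with library totals (36.0% higher, against 52.8% of calls as reported), 2633 and 3359 with quantile normalization (43.9% higher), and 4445 and 5280 with a replicate block. Leaving out 1 library gave 2490 to 2727 higher and 1741 to 2072 lower. The median log2 change of all genes was -0.23 with library totals and -0.15 with quantile normalization. Same-numbered libraries deviated together (r = 0.60), but the labels do not pair them; with the block SDI2 was called higher (adjusted p = 0.0043), which made 3 of the 10 genes higher. The block also gave calls for OASA1 (higher, adjusted p = 0.00092) and for SLIM1, SERAT3;1, APS2 and APS4 (lower, 0.02, 0.0133, 0.0347 and 0.046).

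Over the 39 tested genes of sulfur metabolism, 461 values came from these alternatives: 418 kept direction and side of the threshold, 16 lost a call, 10 gained one and 17 turned sign. Among genes that were not called, the log2 change turned sign with library totals for APK3 (-0.028), EIN3 (-0.11), SHM7 (-0.072) and SULTR2;1 (-0.049), and with quantile normalization for EIN3 (-0.22). When 1 library was left out, the log2 change ran from -0.46 to 0.045 for APR2, -0.21 to 0.0082 for APR3, -0.18 to 0.44 for APK3, -0.14 to 0.29 for EIN3, -0.37 to 0.0068 for GGCT2;1, -0.15 to 0.091 for GSH1, -0.30 to 0.0033 for OASB, -0.28 to 0.15 for SERAT2;2 and -0.018 to 0.23 for SHM7. For APR2 and APR3 the positive value was the one without 0 h replicate 1. The cause was not tested. SULTR3;3 also lost its call with no filter, with quantile normalization, with library totals or centred on control genes (adjusted p = 0.055 to 0.112), and EIL1 and MYB34 with no filter (0.058 and 0.0504). SLIM1 gained a call with library totals (adjusted p = 0.045), and the log2 change of SERAT3;1 was -0.69 without 0 h replicate 1. The edgeR alternative was not run, because the deposited unit is RPKM. Depth limits SULTR1;1, SULTR4;2, SDI1 and LSU1, with at most 15 reads in a library.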
